A study of Homo sapiens with 10 samples.

Results

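The clustered protocadherins of the alpha, beta and gamma arrays are 54 of the 62700 genes in the deposited table. They were taken by symbol: every gene named PCDHA or PCDHB with a number, PCDHAC1, PCDHAC2, and every PCDHGA, PCDHGB or PCDHGC gene with a number. There are 16 alpha, 16 beta, 12 gamma A, 7 gamma B and 3 gamma C members. The family was selected from its difference between CCAR1 knockout and parental cells in these same libraries, so its values in that contrast are given as a description, with no test. Polyadenylated RNA was sequenced from RPE p53-/- cells, human cells of retinal pigment epithelial origin, in 5 CCAR1 knockout and 5 parental samples. Both genotypes lack p53 and were grown in DMEM/F12 with GlutaMAX and fetal bovine serum. CCAR1 encodes a cell cycle and apoptosis regulator. The labels do not say whether the knockout cells are a single clone or whether replicates were separate cultures, so whatever else sets the cell populations apart is part of each comparison, and the p-values rest on variation among these samples that could be technical only.

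Clustered protocadherins are cadherin-related membrane proteins that bind the same isoform on a neighbouring cell, and they are best known from neurons, where each cell uses its own combination of isoforms. In the alpha and gamma arrays each member has its own promoter and a large first exon that is spliced to constant exons shared by the whole array, whereas a beta member is a gene of its own with a single exon. Promoter choice is known to depend on looping by CTCF and cohesin and on DNA methylation. All 54 members lie in tandem on the + strand of chromosome 5. In GENCODE coordinates of GRCh38, matched by gene ID for all members, the alpha genes begin at 140786136 (PCDHA1) and PCDHAC2 ends at 141012344, the beta genes run from 141051135 (PCDHB1) to 141249365 (PCDHB15), and the gamma genes run from 141330571 (PCDHGA1) to 141512981. The shared exons also mean shared sequence. Of the 31-base words in a member's transcript, a median of 63.6% also occur in another member for alpha genes, 54.0% for gamma A, 55.8% for gamma B and 45.9% for gamma C. The median is 20.2% for beta genes, where PCDHB8 is highest at 56.1%, most of it shared with PCDHB13, and PCDHB1 lowest at 0.1%. The counts of single members are therefore uncertain where reads could be divided among them. Reads exchanged between members of the same array do not move the sum over that array.

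Most members share a short conserved element just upstream of the gene start in RefSeq, built around the letters CGCT. It is shown here because most members of an array carry a common form of it. PCDHB1, whose level differed least among the beta genes, does not carry the beta form in the stretch searched. Of the 54 members, 47 matched the RefSeq promoter table (GRCh38.p14), which gives 250 bases before to 50 bases after the gene start. PCDHA3, PCDHA13, PCDHA14, PCDHB6, PCDHB11, PCDHGA12 and PCDHGC5 are not in it. Capitals mark CGCT in each 40-base window, on the + strand.
PCDHA4: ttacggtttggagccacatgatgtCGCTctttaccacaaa
PCDHB2: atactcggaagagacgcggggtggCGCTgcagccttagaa
PCDHB10: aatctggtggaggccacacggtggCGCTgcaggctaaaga
PCDHB13: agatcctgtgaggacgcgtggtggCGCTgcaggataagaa
PCDHB16: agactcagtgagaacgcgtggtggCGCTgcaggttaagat
PCDHB1: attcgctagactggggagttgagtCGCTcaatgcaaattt
PCDHGA7: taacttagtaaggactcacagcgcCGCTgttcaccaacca
PCDHGA11: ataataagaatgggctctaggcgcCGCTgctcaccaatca
PCDHGB1: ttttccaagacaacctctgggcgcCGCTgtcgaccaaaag
PCDHGC3: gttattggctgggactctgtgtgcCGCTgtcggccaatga
The windows are at chr5:140806971-140807010 for PCDHA4, chr5:141094536-141094575 for PCDHB2, chr5:141192291-141192330 for PCDHB10, chr5:141213857-141213896 for PCDHB13 and chr5:141182302-141182341 for PCDHB16. Those of the remaining genes are at chr5:141051266-141051305 for PCDHB1, chr5:141382641-141382680 for PCDHGA7, chr5:141420964-141421003 for PCDHGA11, chr5:141350017-141350056 for PCDHGB1 and chr5:141475872-141475911 for PCDHGC3. RefSeq and GENCODE starts differ for some genes. The windows of PCDHA4, PCDHB16 and PCDHB1 lie after their GENCODE starts of 140806929, 141181399 and 141051135. For PCDHB1 the promoter searched, chr5:141051124-141051423, thus reaches little upstream of the GENCODE start.

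The forms were written down after the members' promoters had been read, and were then searched on both strands of 35116 promoters. CGCT itself is common and occurs in 70.0% of them, and in 46 of the 47 members. The 9 letters GATGTCGCT occur in 0.105% of all promoters and in 9 of 13 alpha members. GGTGGCGCT occurs in 0.501% of all promoters and in 13 of 14 beta members, the exception being PCDHB1. GNGNCGCTG, where N is any base, occurs in 10.2% of all promoters, in 11 of 11 gamma A, 5 of 7 gamma B and 2 of 2 gamma C members, and in 12 of 14 beta members, because it overlaps the beta form wherever that is followed by G. A match is a run of letters and not a measured binding site, and a link between the forms and the levels was not tested. Of the gamma genes without GNGNCGCTG, PCDHGB3 had a log2 fold change (knockout over parental) of 1.33 and PCDHGB7 of 0.20. Fitted gamma genes with it ranged from -0.17 (PCDHGC3) to 1.76 (PCDHGB6).

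Library totals were 52.6e+06 to 65.2e+06 counts in replicates 1 to 3 of each genotype, called shallow here, and 321e+06 to 385e+06 in replicates 4 and 5, called deep. The targeted gene, CCAR1, was at 92.3, 95.6, 88.5, 126 and 126 CPM in knockout replicates 1 to 5, against 125, 133, 134, 173 and 173 CPM in parental replicates 1 to 5. CPM is counts per 1e+06 of the scaled library size. Within each depth every knockout library was below every parental one, although transcript remained in all of them (log2 fold change -0.48 ± 0.14 SE, where SE is the standard error; Benjamini-Hochberg adjusted p = 0.0201 by edgeR). With libraries scaled by total counts alone, or without parental replicate 5, the adjusted p was 0.0525 and 0.0504 by edgeR, above the threshold of 0.05. Transcripts of skeletal muscle, blood and liver were present in shallow libraries of both genotypes, muscle markers summing to 276 to 625 CPM in shallow and 17.2 to 32.8 CPM in deep libraries. Of the 12 retinal pigment epithelium markers looked at, 6 were below 1 CPM in every library, among them RPE65, RLBP1, TYR and DCT, while KRT8, KRT18, MITF and OTX2 were present. Neuronal markers, of interest because neurons express this family, summed to 29.5 to 39.1 CPM in knockout and 25.1 to 32.8 CPM in parental libraries. Within each depth every knockout sum was above every parental sum. In shallow libraries they were 29.5 to 30.9 against 25.1 to 28.1 CPM, and in deep libraries 38.9 to 39.1 against 31.3 to 32.8 CPM (knockout first). That sum came mostly from SYT1 and SNAP25, 9 of the 14 genes stayed below 1 CPM in every library, and DCX, ELAVL4, ELAVL3 and STMN2 were at or near 0. Single markers went both ways: SNAP25 was at 9.66 to 13.4 CPM in knockout and 3.98 to 5.35 CPM in parental libraries, GAD1 at 0.484 to 0.898 CPM in knockout and 1.87 to 3.00 CPM in parental libraries, and SYT1 overlapped. The part of such markers in the protocadherin values was not tested.

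Summed over each array, the beta genes stood apart between the genotypes, the gamma genes differed less, and the alpha genes were close to absent in both. The 16 beta genes together were at 61.1, 56.8, 51.8, 65.7 and 67.0 CPM in knockout replicates 1 to 5, against 4.17, 4.06, 4.56, 5.36 and 5.14 CPM in parental replicates. Every knockout library was far above every parental library. The means were 60.5 ± 6.33 CPM in knockout and 4.66 ± 0.576 CPM in parental cells (SD, n = 5 each), a 13.0-fold ratio. The log2 ratio was 3.73 among shallow libraries and 3.66 among deep ones. In bulk RNA, more cells using these genes and more RNA per cell cannot be told apart.

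The 22 gamma genes together were at 244 ± 8.76 CPM in knockout and 171 ± 3.22 CPM in parental cells, a 1.43-fold ratio. Their subfamilies differed. Gamma A summed to 133 ± 7.58 CPM in knockout and 76.8 ± 2.76 CPM in parental cells (1.73-fold), and gamma B to 41.1 ± 1.68 and 27.5 ± 1.52 CPM (1.49-fold, knockout first), with no overlap between the genotypes in either sum. Gamma C summed to 69.8 ± 6.44 CPM in knockout and 66.5 ± 3.14 CPM in parental cells, and the ranges overlapped. The 16 alpha genes summed to only 0.726, 0.596, 0.503, 1.11 and 1.14 CPM in knockout replicates, against 0.425, 0.636, 0.389, 0.933 and 0.801 CPM in parental replicates. The alpha sum followed depth in both genotypes and overlapped between them over all libraries. Among deep libraries the knockout sums were above the parental ones, and among shallow libraries the sums overlapped. The plot of summed levels shows these values library by library.

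**Figure D1:**
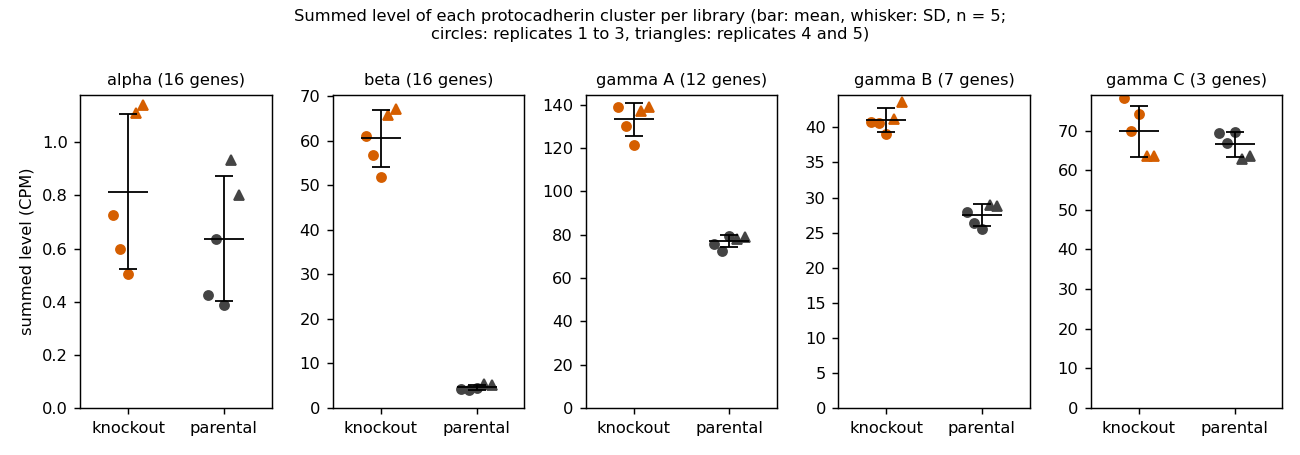
Summed level (CPM) of each cluster in every library, with CCAR1 knockout left of parental in each panel, circles for replicates 1 to 3, triangles for replicates 4 and 5, and the mean and SD (n = 5) as bar and whisker. The beta sums lie between 51.8 and 67.0 CPM in knockout and between 4.06 and 5.36 CPM in parental libraries, while the gamma C sums overlap.

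Across the members, 34 of 54 had enough counts to be fitted. The other 20 were 15 alpha genes, PCDHB4, PCDHB6, PCDHGA3, PCDHGB5 and PCDHGC4. Of the 34, 26 passed the edgeR threshold (Benjamini-Hochberg adjusted p under 0.05) as higher in knockout cells, where 19.7% of the 18979 genes tested did. None passed as lower, where 16.9% of all genes did. No member was lower at an unadjusted p under 0.05 in edgeR either, limma-voom called 0, and DESeq2 called 1, PCDHGC3. With the replicate number as a block the counts were 29 higher and 1 lower, against 31.1% and 30.1% of all genes. The 5 knockout values all lay above the 5 parental values for 23 of the 34 (16% of all genes tested) and below them for 0 (14.6% of all genes). These counts describe how the family was chosen and are not evidence about it. The fitted members had a median log2 fold change of 1.49, against 0.02 over all genes tested. At least 2-fold higher were 23 of them, a count that also follows from the choice and has no share over all genes here. The count of members at 1 CPM or more on average was 24 in knockout and 9 in parental cells. That count, and its part for beta genes below, likewise follow from the choice and have no share over all genes here. The plot of fold changes along the locus shows where the differences sit.

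**Figure D2:**
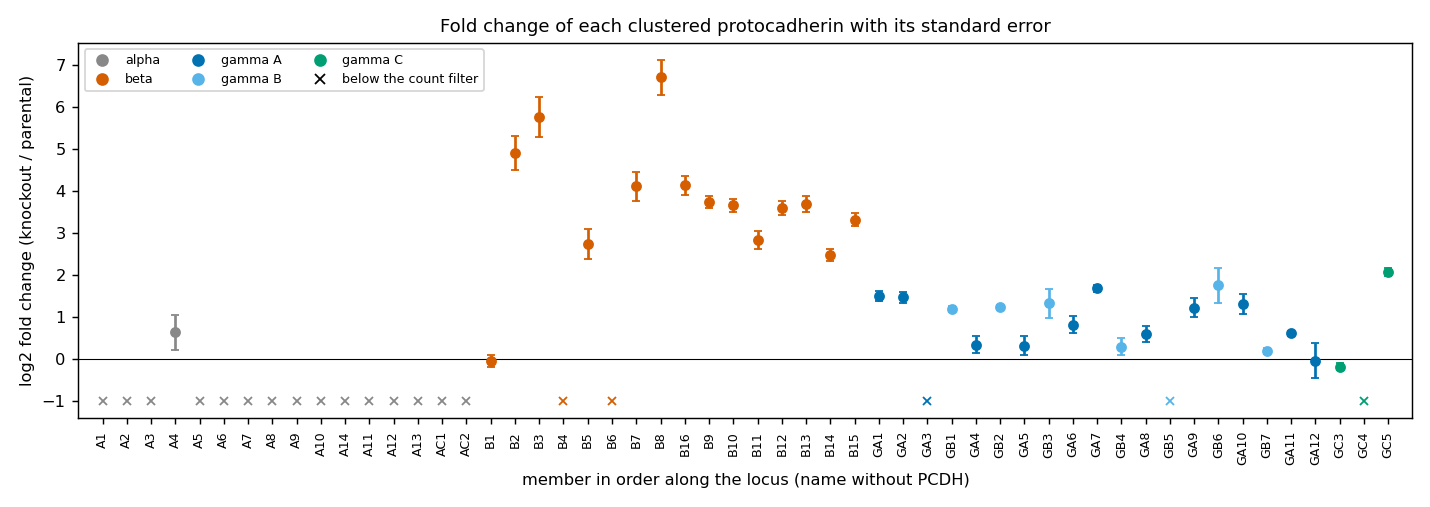
Log2 fold change (CCAR1 knockout over parental) of each member with its standard error, in order along chromosome 5, coloured by subfamily, with crosses for the 20 members below the count filter. All fitted beta members except PCDHB1 lie above 2.4, the gamma members lie between -0.17 and 2.08, and PCDHA4 is the only fitted alpha gene.

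Of the 16 beta members, 11 averaged at least 1 CPM in knockout cells and 0 did in parental cells. PCDHB16 had the highest CPM of them. It was at 13.8, 11.5, 10.3, 16.1 and 15.8 CPM in knockout replicates, against 0.472, 0.636, 0.902, 0.928 and 0.844 CPM in parental replicates. Its mean was 13.5 ± 2.56 CPM in knockout and 0.756 ± 0.196 CPM in parental cells (log2 fold change 4.14 ± 0.22 SE). Per kilobase of transcript, PCDHB8 was higher than PCDHB16 in knockout cells, with mean levels of 3.04 and 2.69 CPM per kb. PCDHB8 was at 7.97, 8.45, 6.86, 9.0 and 9.35 CPM in knockout replicates, against 0.0472, 0.0177, 0.0177, 0.137 and 0.0879 CPM in parental replicates. PCDHB8 had 7478 counts over all knockout libraries and only 85 over all parental libraries, which makes the size of its log2 fold change (6.72 ± 0.42 SE) imprecise. PCDHB8 also shares 43.3% of its sequence words with PCDHB13, more than any other pair of beta genes, so part of its counts could belong to that gene. PCDHB13 was at 5.53, 5.12, 4.53, 6.46 and 6.88 CPM in knockout replicates, against 0.346, 0.336, 0.389, 0.537 and 0.546 CPM in parental replicates (log2 fold change 3.69 ± 0.19 SE). The genotypes were therefore apart for both genes of that pair.

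PCDHB3, PCDHB2 and PCDHB7 lie towards the start of the array, and PCDHB3 and PCDHB2 had the largest ratios after PCDHB8. PCDHB5 lies there as well and had a smaller ratio (log2 fold change 2.74). PCDHB3 had 425 counts in knockout and 8 counts in parental libraries. Its mean was 0.507 ± 0.0503 CPM in knockout and 0.00734 ± 0.00873 CPM in parental cells (log2 fold change 5.77 ± 0.48 SE). PCDHB2 was at 4.58, 4.23, 2.82, 4.19 and 4.03 CPM in knockout replicates, against 0.0315, 0.230, 0.177, 0.169 and 0.0691 CPM in parental replicates (log2 fold change 4.91 ± 0.41 SE). The parental values of PCDHB2 spread over several-fold and none came near a knockout value. PCDHB7 was at 2.03, 1.37, 1.33, 1.35 and 1.36 CPM in knockout replicates, against 0.0157, 0.106, 0.0884, 0.106 and 0.0910 CPM in parental replicates (log2 fold change 4.12 ± 0.34 SE).

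PCDHB9, PCDHB10 and PCDHB12, further along the array, had ratios close to each other, whereas PCDHB11, between PCDHB10 and PCDHB12, had a smaller one. PCDHB10 was at 6.07, 6.93, 5.84, 6.60 and 6.61 CPM in knockout replicates, against 0.409, 0.477, 0.371, 0.648 and 0.575 CPM in parental replicates (log2 fold change 3.66 ± 0.16 SE). PCDHB12 was at 6.25, 5.69, 6.65, 6.33 and 6.95 CPM in knockout replicates, against 0.677, 0.336, 0.477, 0.547 and 0.556 CPM in parental replicates (log2 fold change 3.61 ± 0.17 SE). PCDHB9 was at 3.70, 3.56, 3.20, 3.91 and 3.88 CPM in knockout replicates, against 0.283, 0.212, 0.212, 0.299 and 0.317 CPM in parental replicates (log2 fold change 3.75 ± 0.15 SE). For each of these genes the lowest knockout value was several times the highest parental value. PCDHB15, PCDHB11, PCDHB5 and PCDHB14 had log2 fold changes of 3.33, 2.85, 2.74 and 2.49, the last being the smallest among the 13 fitted beta genes other than PCDHB1. PCDHB4 and PCDHB6 were too low to be fitted, at 0.123 ± 0.00888 and 0.136 ± 0.0484 CPM in knockout cells, against 0.0110 ± 0.0147 and 0.0185 ± 0.0198 CPM in parental cells, and their knockout values also lay above all parental values.

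PCDHB1 was the exception in its array. It was at 0.447, 0.442, 0.467, 0.534 and 0.565 CPM in knockout replicates, against 0.472, 0.618, 0.513, 0.486 and 0.468 CPM in parental replicates, and the ranges overlapped. Its log2 fold change was -0.05 ± 0.14 SE, so the difference was smaller than the spread between replicates. Within the shallow libraries all knockout values were below the parental ones, and within the deep libraries they were above them, and this change with depth did not pass (interaction adjusted p = 0.442 by edgeR). PCDHB1 begins the array, lies apart from PCDHB2, and is the beta gene whose promoter window shown above lacks GGTGGCGCT. Whether these features bear on the level of PCDHB1 was not tested. PCDHB1-AS1 is named as its antisense gene. Reads from any stretch where the pair overlaps cannot be told apart unless counting used strand, which the sources used here do not give.

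Within the gamma array 2 genes dominated in parental cells, PCDHGA11 and PCDHGC3, and only PCDHGA11 was apart between the genotypes. PCDHGA11 was at 106, 96.9, 87.6, 98.1 and 98.8 CPM in knockout replicates, against 63.0, 60.4, 65.8, 63.2 and 64.5 CPM in parental replicates. The ranges were apart (log2 fold change 0.62 ± 0.06 SE). PCDHGC3, the C-type isoform that many non-neuronal cells express, was at 63.3, 56.4, 60.7, 50.1 and 50.3 CPM in knockout replicates, against 66.5, 63.0, 66.5, 59.5 and 60.6 CPM in parental replicates. The pooled ranges overlapped, the 2 deep knockout libraries lay below the 2 deep parental ones, and the log2 fold change was -0.17 ± 0.08 SE. Per kilobase of transcript, PCDHGA11 and PCDHGC3 had mean levels of 21.0 and 11.9 CPM per kb in knockout cells, against nearly equal levels of 13.6 and 13.4 CPM per kb in parental cells.

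The largest ratio among gamma genes was that of PCDHGC5, the last gene of the array and a C-type isoform otherwise known from neurons. It was at 14.7, 13.4, 13.2, 13.3 and 13.3 CPM in knockout replicates, against 2.98, 3.85, 2.97, 3.30 and 2.94 CPM in parental replicates (log2 fold change 2.08 ± 0.09 SE). The remaining C-type gene of the array, PCDHGC4, stayed at 0.0931, 0.0385, 0.216, 0.0758 and 0.101 CPM in knockout replicates, against 0.0157, 0.0883, 0.106, 0.0582 and 0.0691 CPM in parental replicates, and the ranges overlapped. The 3 gamma C genes thus differed from each other: PCDHGC5 was higher in knockout cells, PCDHGC3 overlapped between the genotypes, and PCDHGC4 was close to absent.

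Among gamma A and gamma B genes, PCDHGA7 was at 21.3, 20.6, 19.8, 23.5 and 24.0 CPM in knockout replicates, against 6.85, 6.29, 6.10, 7.48 and 7.02 CPM in parental replicates (log2 fold change 1.69 ± 0.08 SE). PCDHGA1 was at 4.73, 5.64, 6.25, 6.84 and 6.88 CPM in knockout replicates, against 1.78, 2.00, 2.12, 2.35 and 2.40 CPM in parental replicates (log2 fold change 1.51 ± 0.13 SE). PCDHGA2 was at 2.38, 2.12, 2.17, 2.51 and 2.54 CPM in knockout replicates, against 1.09, 0.777, 0.796, 0.719 and 0.848 CPM in parental replicates (log2 fold change 1.48 ± 0.13 SE). These 3 genes were apart between the genotypes in every pair of libraries. PCDHGB1 was at 9.72, 9.79, 10.3, 9.43 and 9.04 CPM in knockout replicates, against 4.49, 4.06, 3.66, 4.37 and 4.41 CPM in parental replicates (log2 fold change 1.20 ± 0.08 SE). PCDHGB2 was at 7.91, 7.60, 7.78, 7.43 and 7.87 CPM in knockout replicates, against 3.05, 3.18, 3.47, 3.31 and 3.39 CPM in parental replicates (log2 fold change 1.23 ± 0.07 SE). Both gamma B genes were more than 2-fold higher in knockout cells. The gamma A genes on either side of PCDHGB2 were not: PCDHGA4 and PCDHGA5 had log2 fold changes of 0.35 and 0.33, with an SE of 0.21 and 0.24 and overlapping ranges.

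PCDHGB7 and PCDHGB4 overlapped between the genotypes over all libraries. PCDHGB7 was at 21.6, 20.8, 18.8, 21.8 and 24.1 CPM in knockout replicates, against 19.5, 17.6, 17.2, 19.8 and 19.3 CPM in parental replicates (log2 fold change 0.20 ± 0.08 SE). PCDHGB4 was at 0.689, 1.02, 1.19, 1.10 and 1.09 CPM in knockout replicates, against 0.535, 1.02, 0.831, 0.804 and 0.942 CPM in parental replicates (log2 fold change 0.30 ± 0.20 SE). Among deep libraries the knockout values of both genes were above the parental ones. PCDHGB7 was called higher with the replicate block, and the log2 fold change of PCDHGB4 was 0.18 without parental replicate 1. The low gamma genes PCDHGA6, PCDHGA8, PCDHGA9, PCDHGA10, PCDHGB3 and PCDHGB6 averaged at most 1.10 CPM in each genotype and had log2 fold changes from 0.60 for PCDHGA8 to 1.76 for PCDHGB6, where the SE was 0.43. PCDHGA12 had a log2 fold change of -0.03 ± 0.41 SE. Of the unfitted genes, PCDHGA3 averaged 0.130 CPM in knockout and 0.0506 CPM in parental cells, and PCDHGB5 averaged 0.0524 and 0.0935 CPM (knockout first).

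The alpha array was nearly silent in both genotypes, and 14 of its 16 genes averaged below 0.1 CPM in each. PCDHA4 was the only one fitted. It was at 0.261, 0.385, 0.269, 0.685 and 0.735 CPM in knockout replicates, against 0.236, 0.141, 0.194, 0.510 and 0.392 CPM in parental replicates (log2 fold change 0.65 ± 0.41 SE). The pooled ranges overlapped, while within each depth all knockout values were above all parental values. PCDHA9 was at 0.168, 0.0577, 0.108, 0.152 and 0.152 CPM in knockout replicates, against 0.0630, 0.265, 0.0530, 0.238 and 0.192 CPM in parental replicates. PCDHA7 was at 0.130, 0.115, 0.0898, 0.0437 and 0.0714 CPM in knockout replicates, against 0.0157, 0.0707, 0.0354, 0.0264 and 0.0283 CPM in parental replicates. Both genes overlapped between the genotypes over all libraries, although PCDHA7 was above parental in every knockout library of the same depth and PCDHA9 was below it in the deep libraries. PCDHA10 also overlapped and lay between 0 and 0.0933 CPM in knockout and between 0.0315 and 0.0883 CPM in parental libraries. The C-type genes PCDHAC1 and PCDHAC2 had 6 and 5 counts in all knockout libraries together, against 14 and 4 in all parental libraries. PCDHA12 and PCDHA14 had no count in any library, and PCDHA14 is annotated as a transcribed unprocessed pseudogene. The map of levels shows the alpha block dark throughout, PCDHB1 alike in both genotypes, and the change in shade from PCDHB2 onwards.

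**Figure D3:**
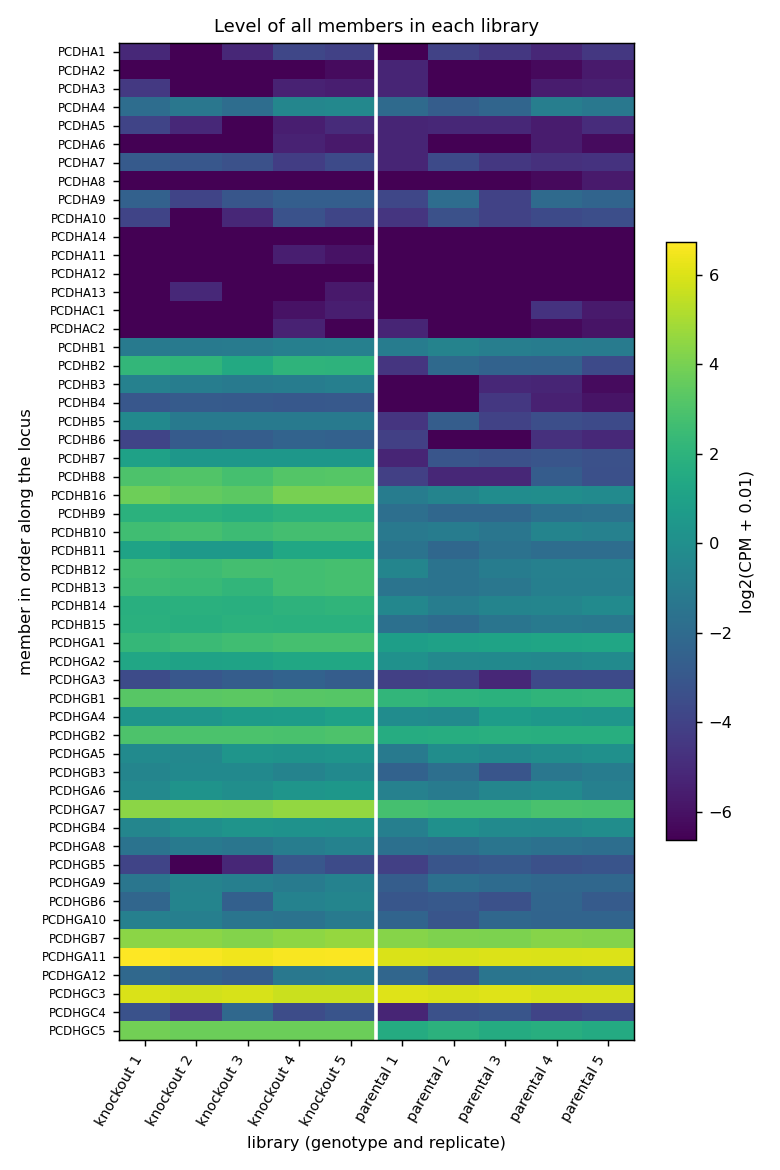
Level of each of the 54 members, as log2(CPM + 0.01), in the 5 CCAR1 knockout libraries (left of the white line) and the 5 parental libraries (right), in order along the locus. PCDHB2 to PCDHB15 are brighter in all knockout libraries, PCDHGA11 and PCDHGC3 are bright in all 10, and most alpha genes are dark in all 10.

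The make-up of the beta and gamma arrays also differed between the genotypes. Of all beta counts, PCDHB8 took 13.8 ± 0.718% in knockout and 1.25 ± 0.916% in parental cells. The parental share of PCDHB8 rests on 3, 1 and 1 counts in the shallow libraries. Reads divided among similar members can also move shares within an array, and PCDHB8 shares 43.3% of its sequence words with PCDHB13. PCDHB2 took 6.56 ± 0.899% and 2.96 ± 1.97% (knockout first). PCDHB1 took 0.813 ± 0.0647% in knockout and 11.2 ± 2.51% in parental cells, since its level stayed while the rest of the array was higher, and PCDHB14 took 6.24 ± 0.385% in knockout and 14.3 ± 2.18% in parental cells. PCDHB10, PCDHB12, PCDHB13 and PCDHB9 kept shares within the spread between replicates, at 10.7, 10.6, 9.38 and 6.05% of beta counts in knockout cells, against 10.6, 11.2, 9.14 and 5.68% in parental cells. Of all gamma counts, PCDHGC3 took 23.0 ± 2.38% in knockout and 37.0 ± 1.64% in parental cells, while PCDHGA11 took 39.9 ± 1.47% in knockout and 37.1 ± 0.634% in parental cells. PCDHGA7 took 8.94 ± 0.726% of gamma counts in knockout and 3.95 ± 0.337% in parental cells, and PCDHGC5 took 5.56 ± 0.118% in knockout and 1.88 ± 0.266% in parental cells. The bars of array shares show these values.

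Whether the genotype difference of a member was the same in shallow and deep libraries was tested as an interaction, which is not the contrast the family was chosen on. The edgeR interaction test called 0 of the 34 fitted members after Benjamini-Hochberg adjustment over 18979 genes, of which 0.601% were called. At an unadjusted p under 0.05 there were 4, and DESeq2 called 0. The smallest adjusted p among members was that of PCDHB8 (edgeR adjusted p = 0.116), whose log2 fold change was 7.98 in shallow and 6.30 in deep libraries. The shallow value rests on only 3, 1 and 1 counts in parental replicates 1 to 3, against 52 and 28 in parental replicates 4 and 5. PCDHGB3 came next (edgeR adjusted p = 0.135), with 2.00 in shallow and 0.74 in deep libraries. The PCDHB8 and PCDHGB3 calls changed when no filter was applied or when knockout replicate 1 was left out, as given in the closing section. In 26 of the 34 members every knockout library was above every parental library of its own depth. That count belongs to the contrast the family was chosen on, has no share over all genes beside it, and is not evidence about the family. PCDHGC3 was lower in the deep libraries (log2 fold change -0.28) and closer to parental in the shallow ones (-0.13), a difference of -0.14 ± 0.07 SE that did not pass (edgeR adjusted p = 0.33).

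Genes flanking the arrays on chromosome 5 are described beside members that were selected for their difference, so smaller values here are no finding. Among these genes APBB3 (log2 fold change 0.81) differed more than the member PCDHGA11 (0.62). Of 26 listed neighbours 24 were tested, and their median log2 fold change was 0.11. In the edgeR fit 6 rose, 4 fell and 14 did not pass, where 19.7% of all genes tested rose and 16.9% fell. With the replicate block 10 rose and 5 fell, where 31.1% of all genes rose and 30.1% fell. TAF7, a subunit of the general transcription factor TFIID encoded between the beta and gamma arrays, was at 109.8 to 117 CPM in knockout and 81.1 to 93.2 CPM in parental libraries (log2 fold change 0.39 ± 0.06 SE, adjusted p = 4.43e-04 by edgeR). SLC25A2, a mitochondrial carrier gene that lies beside TAF7, was at or below 0.0787 CPM in all 10 libraries. GNPDA1, a glucosamine-6-phosphate isomerase, rose by 0.56 on the log2 scale (SE 0.07, adjusted p = 8.91e-05 by edgeR). HARS2, the mitochondrial histidyl-tRNA synthetase, rose by 0.42 (SE 0.06, adjusted p = 1.65e-04 by edgeR), and APBB3, an adaptor of amyloid precursor protein, by 0.81 (SE 0.13, adjusted p = 5.98e-04 by edgeR). For these 4 neighbours that passed, the genotypes were apart in every library. DIAPH1, HDAC3, FCHSD1 and DELE1 fell.

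Protocadherin genes outside the arrays moved in both directions. Of 12 listed, 6 were tested, 2 rose and 2 fell, where 19.7% of all genes tested rose and 16.9% fell. These counts were the same with the replicate block, where 31.1% of all genes rose and 30.1% fell. PCDH15, best known from hair cells and photoreceptors, was at 16.0, 15.0, 15.2, 22.1 and 22.6 CPM in knockout replicates, against 1.65, 1.36, 1.38, 2.08 and 2.05 CPM in parental replicates (log2 fold change 3.40 ± 0.19 SE, adjusted p = 4.61e-07 by edgeR). PCDH18 was at 2.23 to 4.64 CPM in knockout and 0.795 to 1.61 CPM in parental libraries (log2 fold change 1.68 ± 0.23 SE, adjusted p = 2.80e-04 by edgeR). PCDH9 and PCDH10 fell instead. PCDH10 was at 0.168, 0.154, 0.108, 0.0817 and 0.0595 CPM in knockout replicates, against 3.81, 3.57, 3.61, 3.37 and 3.53 CPM in parental replicates (log2 fold change -5.11 ± 0.27 SE, adjusted p = 3.21e-07 by edgeR). PCDH9 was at 0.186 to 0.287 CPM in knockout and 3.92 to 6.72 CPM in parental libraries (log2 fold change -4.41 ± 0.21 SE, adjusted p = 1.73e-07 by edgeR). PCDH1 and PCDH12, which lie further along chromosome 5, did not pass, with log2 fold changes of 0.11 (SE 0.78, adjusted p = 0.937 by edgeR) and -0.13 (SE 0.30, adjusted p = 0.789 by edgeR). The spread of PCDH1 over libraries was large, 0.0922 to 1.00 CPM in knockout and 0.135 to 0.945 CPM in parental libraries.

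Factors known to act on these promoters were examined as well. Of 26 genes for CTCF, cohesin, DNA methylation and chromatin silencing, all tested, 3 rose, 4 fell and 19 did not pass (19.7% and 16.9% of all genes rose and fell), with a median log2 fold change of -0.11. With the replicate block 6 rose and 13 fell (31.1% and 30.1% of all genes). SMC1A, a core cohesin subunit, was at 181, 173, 167, 201 and 208 CPM in knockout replicates, against 254, 262, 261, 288 and 284 CPM in parental replicates (log2 fold change -0.54 ± 0.07 SE, adjusted p = 2.72e-04 by edgeR). STAG1, another cohesin subunit, and PPHLN1 of the HUSH silencing complex also fell. DNMT1, the maintenance DNA methyltransferase, fell by 0.19 on the log2 scale (SE 0.05, adjusted p = 0.0086 by edgeR), and this call was lost when libraries were scaled by total counts alone (edgeR adjusted p = 0.0636). DNMT3A, a de novo methyltransferase, rose by 0.52 (SE 0.11, adjusted p = 0.0032 by edgeR), SETDB1, a histone H3 lysine methyltransferase, rose by 0.25 (SE 0.07, adjusted p = 0.0151 by edgeR), and TET1, a methylcytosine dioxygenase, also rose.

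CTCF, whose binding anchors promoter loops in these arrays, was at 91.2 to 98.3 CPM in knockout libraries, against 99.8 to 107 CPM in parental libraries. The ranges were just apart, and the difference did not pass in the main model (log2 fold change -0.12 ± 0.05 SE, adjusted p = 0.0786 by edgeR), but passed with the replicate block (edgeR adjusted p = 0.0136). RAD21, the cohesin kleisin, averaged 311 ± 58.2 CPM in knockout and 377 ± 66.3 CPM in parental cells (edgeR adjusted p = 0.188, and 0.000134 with the block). SMCHD1, which in mouse silences clustered protocadherin genes, averaged 65.7 ± 24.5 CPM in knockout and 99.5 ± 28.8 CPM in parental cells (edgeR adjusted p = 0.113, and 8.21e-06 with the block). RAD21 and SMCHD1 were lower in every knockout library than in every parental library of the same depth. The part of any of these factors in the protocadherin values was not tested. The strip plot sets these lists beside the members.

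**Figure D4:**
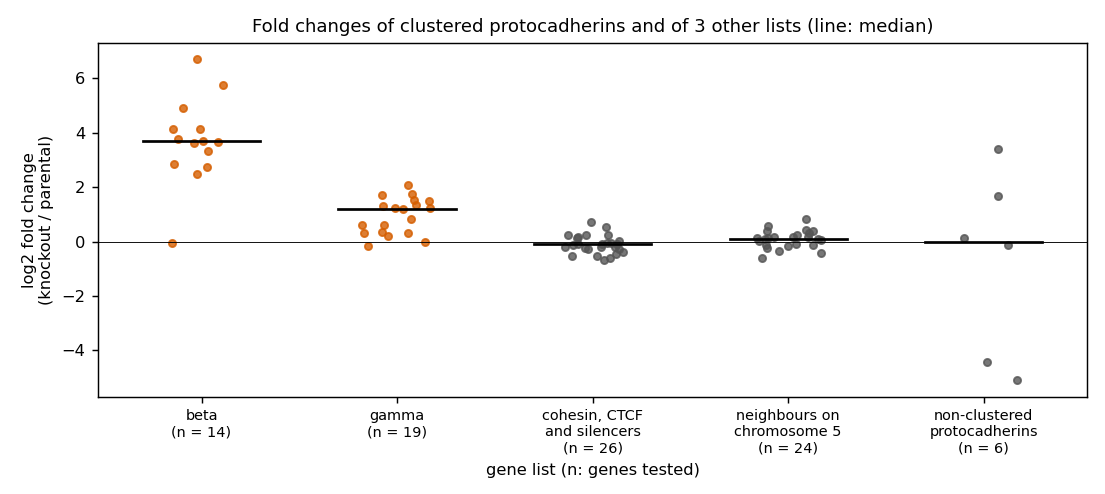
Log2 fold change (CCAR1 knockout over parental) of the fitted beta (14) and gamma (19) members and of 3 lists of other genes, each point a gene and each line a median. The medians are -0.11 for cohesin, CTCF and silencer genes, 0.11 for neighbours on chromosome 5 and -0.01 for non-clustered protocadherins, which range from -5.11 to 3.40.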

How the data were processed

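For every gene in every library the authors deposited an estimated count without normalization. Kallisto 0.48.0 and hg38 are named in the submitters' processing notes. The sources used here do not give the annotation release, how transcripts were summed to genes, or whether counting used strand. Per the labels' protocols, polyadenylated RNA was enriched and libraries were made with a NEBNext kit and run on a NovaSeq. Such estimates divide ambiguous reads among similar members.

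After rounding the estimates to whole numbers, 18979 of 62700 genes passed filterByExpr, grouped by genotype. They were scaled by TMM and entered a robust quasi-likelihood fit on genotype in edgeR 4.0.16 under R 4.3.3. P-values were adjusted over these genes by Benjamini and Hochberg's method, with 0.05 as threshold. Each SE is the size of the log2 fold change over the root of its F statistic. The biological coefficient of variation was 0.31, falling to 0.0698 once depth entered the model. Levels per kilobase use the longest spliced GENCODE transcript. The fit was also run on simulated data with known fold changes, and no result here rests on that run.

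The members, the gene lists and the rule for naming genes were chosen with earlier results of these data known. Named were the 4 members of each cluster with the highest mean CPM, the C-type members and CCAR1. Also named were the 6 largest fold changes each way among members at 1 CPM or more on average in either genotype. Up to 4 genes with the smallest adjusted p were taken from each other list, besides TAF7, SLC25A2, PCDH1, PCDH12, CTCF, RAD21 and SMCHD1. PCDHB3 and other members are described to account for the whole family.

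Same-numbered samples of the 2 genotypes deviated together from their group means (correlations across genes of 0.584 to 0.899), which by a limit of 0.1 in every pair counts as pairing. The correlations were 0.594 to 0.901 between different numbers within a depth, and -0.776 to -0.725 across depths, so the numbers mark depth more than individual pairs. No libraries of the same genotype and depth were merged, since the chi-square between them, 6.95 to 26.5 per gene, was above what sampling gives.

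Alternatives were scaling by DESeq2's size factors or by library size, no filter, at least 1 CPM in 5 libraries, DESeq2 1.42.0, limma-voom (limma 3.58.1), the replicate block, depth as a term, either depth alone, and each library left out; those for genes that are not members were added after seeing the data.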

Additional observations from a re-analysis of the deposited data

Results flagged for a closer look

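In 62 groups of 5 values, the 25 named members and 6 sums in each genotype, 4 had a library far from the others, where chance gives about 1 in 20 groups. PCDHB7 was at 2.03 CPM in knockout replicate 1, against 1.33 to 1.37 CPM in the other knockout libraries. PCDHB7 was at 0.0157 CPM in parental replicate 1, against 0.0884 to 0.106 CPM in the other parental libraries. PCDHGC5 was at 14.7 CPM in knockout replicate 1, against 13.2 to 13.4 CPM in the others. PCDHAC2 was at 0.0146 CPM in knockout replicate 4 and listed at 0 in the other knockout libraries.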

How the results depend on the processing

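Of 379 values of 19 named members recomputed under the alternatives, 365 kept their direction and their side of the threshold, 14 passed the threshold only under the alternative, and 0 changed sign. The count of members called higher stayed within 1.5 times of the 26 reported, 25 to 27 when single libraries were left out and 29 with the replicate block. The lowest count was 19 of 22 members tested, with at least 1 CPM in 5 libraries. The highest was 34 of 43 members tested, in the deep libraries alone. The count called lower was 1 instead of 0 with DESeq2, with the replicate block, with depth as a term and in the deep libraries alone. The log2 ratio of all gamma genes was 0.57 with library size only, against 0.51. The interaction called 2 members with no filter on low counts (PCDHB8 and PCDHGB3) and 0 to 3 when single libraries were left out, the 3 being PCDHB8, PCDHGB3 and PCDHB11 without knockout replicate 1. Of the cohesin, CTCF and silencer genes, 6 instead of 3 rose with the replicate block, with depth as a term and in the deep libraries. Those that fell numbered 4 as reported, 7 with DESeq2 size factors, 2 with library size only, 10 with DESeq2, 13 with the block and in the shallow libraries, 15 with depth as a term and 17 in the deep libraries. Of the neighbours, 6 rose as reported, 10 with the block and in the shallow libraries, and 12 with depth as a term. Calls over all genes, in either direction, also changed with these settings. They numbered 6939 of 18979 as reported, 6998 with DESeq2 size factors, 6876 with library size only and 7836 with DESeq2. With the block there were 11619, with depth as a term 12149, in the shallow libraries 9911 of 18806 and in the deep libraries 15320 of 26859.

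PCDH12 changed sign to 0.13 with limma-voom, 0.028 with the replicate block, 0.043 with depth as a term, 0.53 in the deep libraries and 0.024 without parental replicate 2, and lay between -0.36 and 0.024 when single libraries were left out. PCDH1 changed sign to -0.31 with limma-voom, -0.088 with the replicate block, -0.10 with depth as a term and -0.55 in the deep libraries, and lay between -0.23 and 0.46 when single libraries were left out. Neither passed the threshold in any of these. The CCAR1 call was lost with library size only (edgeR adjusted p = 0.0525) and without parental replicate 5 (0.0504). Apart from the calls given here and beside the results (PCDHA4, PCDHGB7 and PCDHGC3 passed with the block and under some other alternatives), the replicate block changed no call of a named gene. The cause of these changes was not tested. Levels under about 0.1 CPM rest on few counts in the shallow libraries.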

Other observations

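Loci named after the arrays but outside the 54 members were looked at after their values were seen. PCDHB1-AS1, annotated as antisense to PCDHB1, was at 1.45, 1.04, 1.29, 1.35 and 1.30 CPM in knockout replicates, against 0.0630, 0, 0, 0 and 0.0126 CPM in parental replicates, or 1106 and 8 counts in all (knockout first). It rose (edgeR Benjamini-Hochberg adjusted p = 7.18e-05), while PCDHB1 itself overlapped between the genotypes. Of 4 beta pseudogene loci, 2 were apart between the genotypes: a locus named PCDHB18P had 499 counts in knockout and 55 in parental libraries (log2 fold change 3.42 ± 0.62 SE, adjusted p = 0.00157 by edgeR), and PCDHB19P had 54 and 6 counts (knockout first, not fitted). A further locus named PCDHB18P had 13 counts in knockout and 8 in parental libraries, PCDHB17P had 4 and 1 (knockout first), and the ranges of both overlapped. The gamma pseudogenes PCDHGB8P and PCDHGB9P had 405 and 111 counts in knockout and 393 and 91 counts in parental libraries, and their ranges overlapped. Reads shared with the coding beta genes can reach these pseudogenes, and their part in these counts was not tested.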
